A study of Mus musculus with 12 samples.

Results

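Primary hepatocytes from mice carrying the AEG-1-L24K/L25H knock-in were cultured with or without CP775146, and the response was read from 3 treated and 3 untreated RNA-seq libraries, 6 of the 12 in the series. These 6 libraries were chosen by their labels alone, and the response was measured across the 15664 genes that passed an expression filter, of 46983 genes listed. The other 6 libraries hold wild-type hepatocytes under the same pair of conditions and were used only to ask where the knock-in response differed. AEG-1 (astrocyte elevated gene-1) is the protein encoded by Mtdh, and the knock-in carries the changes L24K and L25H, numbered along the protein. The allele was made with CRISPR/Cas9 in C57BL/6/J mice, and knock-in and wild-type animals were littermates from matings of heterozygotes. Treated cultures received CP775146 at 2.5 μM for 24 h. The prefix of that unit is a symbol-font character in the labels and was read here as micro. Control cultures were untreated, with no vehicle named, so an effect of a vehicle and an effect of CP775146 cannot be told apart. Sex and age are not given in the sources used here, and the labels do not say whether the 3 libraries in each group are from different animals or cultures, so the p-values measure the spread between these libraries, which may be technical.

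CP775146 is a synthetic agonist of PPAR-alpha, a nuclear receptor that senses fatty acids. PPAR-alpha binds DNA as a heterodimer with a retinoid X receptor such as RXR-alpha, at direct repeats of AGGTCA separated by a single base, and in the liver it drives the fasting program of fatty acid uptake, peroxisomal and mitochondrial oxidation and ketone body synthesis. AEG-1 is known to bind retinoid X receptors through an LXXLL motif, the stretch that the knock-in changes, and to hold back transcription by their heterodimers.

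The knock-in libraries held 29768618 to 34885451 counts in genes, and 3 counts in 1 library corresponded to 0.086 to 0.101 CPM (counts-per-million, a count relative to the library total). Libraries of a group lay close together: the biological coefficient of variation was 2.57% in the untreated and 2.61% in the treated knock-in group, against 5.09% and 5.32% in the wild-type groups. The hepatocyte identity of the cultures was visible in 10 hepatocyte markers, which together took 81911 to 86571 CPM in the untreated and 75669 to 78467 CPM in the treated knock-in libraries. Among the wild-type libraries, replicate 1 of the CP775146 group stood apart in interferon-stimulated genes. Their summed level was 2933 CPM in it, against 2101 and 2085 CPM in replicates 2 and 3. Counts of genotype differences, over all genes and among interferon-stimulated genes, are given with and without this library. The responses within each genotype were not refitted without it.

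CP775146 changed 5821 of the 15664 genes in knock-in hepatocytes (37.2%; edgeR quasi-likelihood test, Benjamini-Hochberg adjusted p below 0.05), of which 2832 (18.1%) rose and 2989 (19.1%) fell. When libraries were scaled to their total counts in place of the trimmed mean of M-values (TMM), the split became 2066 higher and 4352 lower. Most changes were small, with a median size of 0.31 on the log2 scale among called genes. Larger changes were mostly rises: 410 genes (2.62%) rose and 241 (1.54%) fell at least 2-fold, and 127 (0.811%) rose and 32 (0.204%) fell at least 4-fold. The 127 strongest rises included 41 members of the gene lists used here and 86 genes outside them, and 86 of the 127 had a mean of at least 1 CPM.

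The transcript that gained the largest share of all counts was Scd1, the stearoyl-CoA desaturase that makes monounsaturated fatty acids, which went from 0.339% to 0.951% of counts. Ehhadh, the bifunctional enzyme of peroxisomal beta-oxidation, followed, from 0.00732% to 0.525%. Cyp4a14, a fatty acid omega-hydroxylase, went from 0.0114% to 0.308%, and Plin2, which coats lipid droplets, from 0.084% to 0.31%. The largest losses were in plasma proteins. Alb, encoding albumin, went from 7.51% to 6.69% of counts, Selenop, the selenium carrier selenoprotein P, from 0.952% to 0.592%, and Ahsg, encoding fetuin-A, from 0.443% to 0.221%. Fn1, encoding fibronectin, went from 0.489% to 0.272%. The fall of Alb was the least secure of these, since it did not pass the test without treated replicate 1 or 3 or without untreated replicate 1 or 2.

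**Figure D1:**
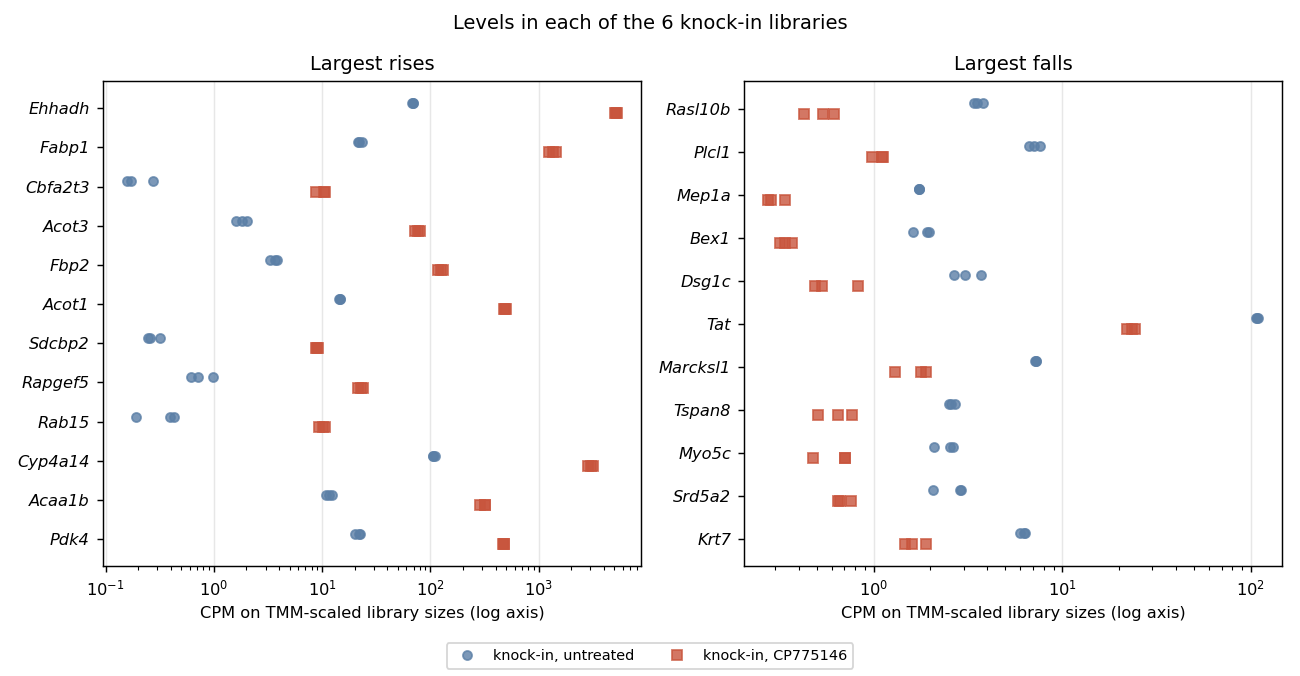
Levels of the 12 genes with the largest rises (left) and 11 among those with the largest falls (right), in CPM on a log axis, with a point for each of the 3 untreated (circles) and 3 treated (squares) knock-in libraries. Genes were drawn only where treated and untreated libraries did not overlap, as in 25.0% (treated higher) and 26.9% (treated lower) of all tested genes; levels run from Ehhadh, at 68 to 69.3 CPM untreated and 5078 to 5255 CPM treated, to Krt7, at 5.96 to 6.38 CPM untreated and 1.46 to 1.901 CPM treated.

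Of 48 tested nuclear receptors and partners 14 rose and 12 fell, where 18.1% of all tested genes rose and 19.1% fell. Their median log2 change was 0.01. Under total-count scaling 21 of them fell, where 4352 of all 15664 tested genes fell. Ppara, encoding PPAR-alpha, was at 75.4, 70.8 and 73.7 CPM untreated and 89.7, 96.2 and 95.6 CPM treated, a rise of 0.36 ± 0.05 (SE) on the log2 scale. Rxra, encoding RXR-alpha, was at 232, 227 and 236 CPM untreated and 242, 234 and 244 CPM treated, and the difference of 0.05 ± 0.04 did not pass the test (edgeR adjusted p = 0.279). Its groups overlapped, while those of Ppara did not. Mtdh, whose transcript carries the edited codons, was at 175, 171 and 172 CPM untreated and 191, 190.0 and 197 CPM treated, a rise of 0.16 ± 0.04 that passed the test here (edgeR adjusted p = 0.00189) and was lost when libraries were scaled to total counts. Gene counts do not read the edited codons, so Mtdh does not check the genotype labels. Ppard rose by 0.26 ± 0.06, Nr1h3, encoding the oxysterol receptor LXR-alpha, rose by 0.28 ± 0.05, and Pparg, encoding the adipogenic receptor, fell by 0.18 on the log2 scale, a call lost without treated or without untreated knock-in replicate 3. Ppargc1a, encoding a coactivator of PPAR-alpha and of mitochondrial genes, was at 15.2, 15.4 and 16.1 CPM untreated and 7.14, 5.92 and 7.71 CPM treated, a change of -1.16 ± 0.09.

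Of 53 classical PPAR-alpha targets, 49 passed the expression filter and 49 rose, 43 of them at least 2-fold, with a median log2 change of 2.09 against -0.01 over all tested genes. Their summed level was 5802, 5806 and 5862 CPM in the untreated and 31495, 30613 and 32186 CPM in the treated libraries. The list was drawn up from what PPAR-alpha agonists are known to raise and with earlier results of these data known, so its count describes the response. The plot of calls by gene list is ordered by the share rising minus the share falling, and this list stands at its top. For this and every later list, the counts stand beside 18.1% of all tested genes that rose and 19.1% that fell.

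**Figure D2:**
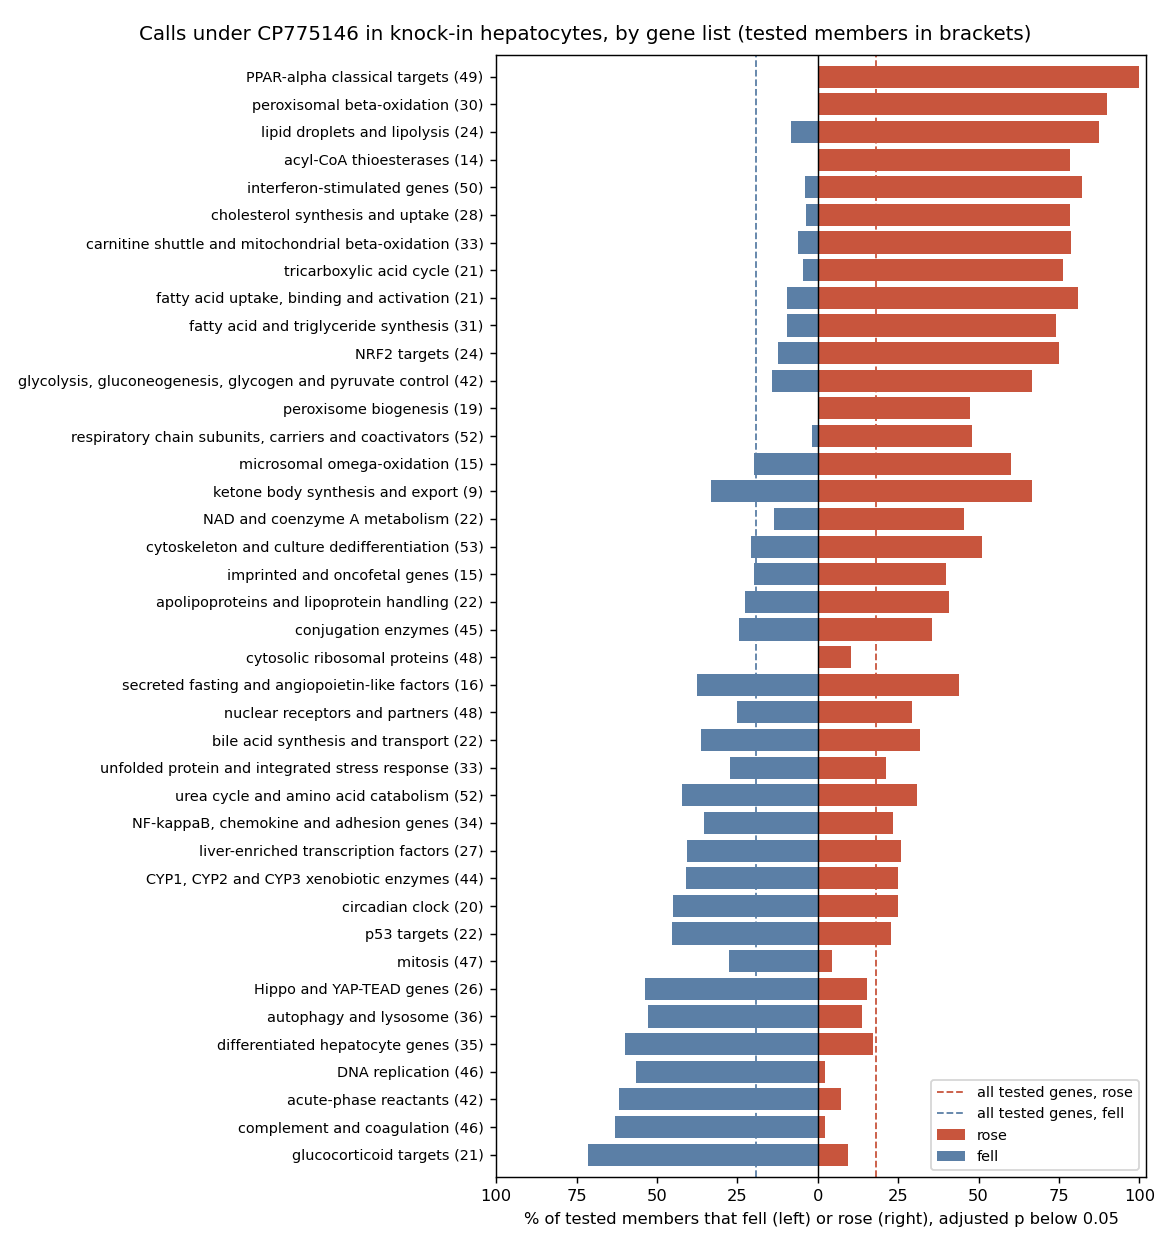
Share of the tested members of each gene list that rose (right, red) or fell (left, blue) under CP775146 in knock-in hepatocytes, in percent, with the number of tested members in brackets. Dashed lines mark the shares over all tested genes, 18.1% rising and 19.1% falling; lipid lists lie far right of the first and complement, coagulation and glucocorticoid lists far left of the second.

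Genes that bring fatty acids into the cell and bind them included 17 that rose and 2 that fell of 21 (median 0.89). Fabp1, the liver fatty acid-binding protein (ENSMUSG00000054422, GRCm38 chromosome 6, 71199827 to 71205023), was at 21.4, 23.2 and 21.7 CPM untreated and 1343, 1255 and 1432 CPM treated, a log2 change of 5.93 ± 0.13. Cd36, a fatty acid translocase, was at 558, 562 and 569 CPM untreated and 1904, 1769.6 and 1932 CPM treated, a log2 change of 1.73 ± 0.07. Acsl1, which activates long-chain fatty acids to their CoA esters, rose by 2.36 ± 0.04 and Slc27a2, a very long-chain acyl-CoA synthetase and transporter, by 2.29 ± 0.04. The 2 falls were small, Slc27a5, the bile acid-CoA ligase, at -0.12 ± 0.04 and Acsm1, a medium-chain synthetase, at -0.29 ± 0.08.

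Among omega-oxidation genes, which hydroxylate fatty acids in the endoplasmic reticulum, 9 of 15 rose and 3 fell. Cyp4a14 was at 104.9, 110.4 and 107 CPM untreated and 3037, 2868 and 3166 CPM treated, a log2 change of 4.82 ± 0.05. Cyp4a10 was at 30.0, 31 and 30.0 CPM untreated and 664, 637 and 674 CPM treated, a log2 change of 4.44 ± 0.06, and Cyp4a31 changed by 3.98 ± 0.06. Reads of these near-identical Cyp4a copies could be split by the counting, so the division between them is uncertain. The 3 falls were in other CYP4 branches, and Cyp4f14, which hydroxylates leukotrienes, changed by -0.46 ± 0.06.

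Peroxisomal beta-oxidation, which shortens very long-chain fatty acids, rose in 27 of 30 genes with none falling (median 1.06). Ehhadh (ENSMUSG00000022853, GRCm38 chromosome 16, 21761287 to 21787844) was at 69.3, 68.9 and 68 CPM untreated and 5078, 5138 and 5255 CPM treated, a log2 change of 6.23 ± 0.05 and the largest rise among the genes named by the rule. Acaa1b, a peroxisomal thiolase, went from 10.8, 12.4 and 11.7 CPM to 321, 286 and 321 CPM, a log2 change of 4.73 ± 0.06. Genes that build peroxisomes moved less than the enzymes inside them: 9 of 19 rose and none fell, with a median of 0.13. Pex11a, which divides peroxisomes, rose most, by 1.899 ± 0.04, and Pex19, which brings in membrane proteins, rose by 0.98 ± 0.04.

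In mitochondria, 26 of 33 genes of the carnitine shuttle and beta-oxidation rose and 2 fell (median 1.02). Cpt1a, which commits fatty acids to the mitochondrion, was at 162, 160.0 and 177 CPM untreated and 346, 318 and 323 CPM treated, a log2 change of 0.98 ± 0.04. Hadha, the trifunctional protein's alpha subunit, rose by 2.13 ± 0.04. Acadsb, a branched-chain acyl-CoA dehydrogenase that works on an isoleucine product, went the other way, at -0.77 ± 0.04. Ucp2, an inner-membrane carrier, was at 11, 10.6 and 11.8 CPM untreated and 113, 94.6 and 109 CPM treated, a log2 change of 3.24 ± 0.07.

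Of 9 ketone body genes 6 rose and 3 fell. Slc16a1, a monocarboxylate exporter, rose by 1.06 ± 0.04. Oxct1, which uses ketone bodies and is normally low in hepatocytes, was at 5.49, 5.71 and 5.88 CPM untreated and 1.75, 2.09 and 2.2 CPM treated, a change of -1.50 ± 0.13.

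Acyl-CoA thioesterases, which release free fatty acids from CoA, rose in 11 of 14 cases with none falling. Acot1, the cytosolic form (ENSMUSG00000072949, GRCm38 chromosome 12, 84009502 to 84017670), was at 14.2, 14.7 and 14.6 CPM untreated and 498, 474 and 493 CPM treated, a log2 change of 5.07 ± 0.06. Acot3, a peroxisomal form, rose by 5.40 ± 0.09 and Acot2, the mitochondrial form, by 3.37 ± 0.05. The 3 genes are near-identical neighbours, and the division of reads between them is uncertain.

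Of 24 lipid droplet and lipolysis genes 21 rose and 2 fell (median 1.12). G0s2, an inhibitor of the triglyceride lipase ATGL, was at 6.97, 6.63 and 6.99 CPM untreated and 114, 109.8 and 121 CPM treated, a log2 change of 4.07 ± 0.12. Cidec, which fuses droplets, went from 19.6, 18.6 and 19.6 CPM to 166, 158 and 165 CPM, a log2 change of 3.08 ± 0.05. Plin2 rose by 1.95 ± 0.04, whereas its relatives Plin3 and Plin4 fell, at -0.43 ± 0.04 and -0.48 ± 0.05. Genes of fatty acid and triglyceride synthesis also rose, 23 of 31 with 3 falling, at a lower median of 0.40. Scd1 went from 3064, 3102 and 3378 CPM to 9528, 9170.4 and 9300.1 CPM, a log2 change of 1.55 ± 0.04, and Acacb, which makes the malonyl-CoA that restrains Cpt1a, rose by 1.96 ± 0.05. Mlxipl, encoding the carbohydrate-response factor ChREBP, fell, at -0.19 ± 0.05, and Lpin1, a phosphatidate phosphatase, at -0.47 ± 0.05.

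Several of the largest rises lay outside the lipid lists. Cbfa2t3, a transcriptional corepressor, was at 0.158, 0.275 and 0.17 CPM untreated and 10.4, 8.8 and 10.7 CPM treated, a log2 change of 5.61 ± 0.19 that rests on 5 to 9 untreated counts a library. Sdcbp2, a syntenin-family adaptor, rose by 5.03 ± 0.17 from a mean of 0.272 CPM. Fbp2, the muscle-type fructose bisphosphatase, was at 3.69, 3.82 and 3.32 CPM untreated and 117, 131 and 124 CPM treated, a log2 change of 5.10 ± 0.07. Regulators of small GTPase signaling and membrane traffic were also among the 12 largest, with Rapgef5, an exchange factor for Rap proteins, at 4.89 ± 0.12 and Rab15, a Rab GTPase, at 4.87 ± 0.17.

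A block of granzyme B inhibitor-like serpins on chromosome 13 showed a divided response; its members were chosen after their values were seen. Serpinb9d was at 0.725, 0.641 and 0.654 CPM untreated and 9.999, 13.2 and 11 CPM treated, a log2 change of 4.07 ± 0.16. Serpinb9e rose by 3.96 ± 0.15, Serpinb9g by 2.99 ± 0.18 and Serpinb9f by 2.79 ± 0.25, each from a mean under 1 CPM. Serpinb9 itself rose less, by 1.254 ± 0.05 from a mean of 28.6 CPM, and Serpinb9b changed by 0.17 ± 0.19, which did not pass the test (edgeR adjusted p = 0.537). Reads of these similar genes may be divided uncertainly between them.

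The promoters of these genes were read beside their response, because the repeat that PPAR-alpha and RXR bind can be searched as letters. The motif was AGGTCA followed by any 1 base and a second AGGTCA, on both strands, allowing 2 mismatches in the 12 fixed letters, in RefSeq windows of 300 bases (250 before to 50 after each gene's start, GRCm38.p6). Windows were matched by symbol for 10424 of the 15664 tested genes, and 412 of these (3.95%) held the repeat in at least 1 window. Over all 32851 windows the share was 3.86%, and over the 27025 genes with a window it was 4.40%. Counted by gene, it stood in 9 of 90 genes with a window (10%) that rose at least 4-fold. It stood in 27 of 282 (9.57%) of those that rose at least 2-fold and 83 of 1782 (4.66%) of those that rose less. For genes that fell it was 91 of 2294 (3.97%), and for those not called 211 of 6066 (3.48%). Serpinb9d, Serpinb9e, Serpinb9f and Serpinb9g, counted in the 9 and the 27, are similar neighbouring genes with the same matched letters, so they are not separate matches. These shares are a description, with no test, and a match is not a binding site.

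The 9 matches among the strongest rises, other than those of Ghrh and Atcayos, are printed 5′ to 3′ along the gene's strand with 8 bases on either side, to show which letters of the repeat each gene has; capitals mark the match. Fabp1 matched at chr6:71199812-71199824 on the opposite strand with the change T4C, Mogat1 at chr1:78511009-78511021 with C5A and G9A, and Creb3l3, whose gene lies on the minus strand, at chr10:81092788-81092800 with T4G and C5G. The 4 serpins matched on the opposite strand with C5A and A6G, Serpinb9d at chr13:33192732-33192744, Serpinb9e at chr13:33249390-33249402, Serpinb9f at chr13:33323844-33323856 and Serpinb9g at chr13:33484568-33484580. In each change the motif's base comes first, then its position counted from 1 at the motif's 5′ end, then the promoter's base on the strand of the match.
Fabp1: acaatcacTGACCTATGGCCTatatctga
Mogat1: cagaattcAGGTAAAAAGTCAggctggtg
Creb3l3: ctgtaagtAGGGGAGAGGTCAcacagacc
Serpinb9d: catcatgtTGACCTTCTACCTtgattcct
Serpinb9e: catcctgtTGACCTTCTACCTtgattcct
Serpinb9f: catcctgtTGACCTTCTACCTtgattcct
Serpinb9g: catcctgtTGACCTTCTACCTtgattcct

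The 4 serpin stretches carry the same capital letters, and only Serpinb9d differs in the flanking bases shown. Mogat1, which makes diacylglycerol from monoacylglycerol, rose by 3.66 ± 0.35 from 5, 5 and 2 counts untreated to 55, 46 and 55 treated. Creb3l3, a liver transcription factor of fasting that raises Fgf21 and apolipoprotein genes, was at 75.9, 76.1 and 77.6 CPM untreated and 485, 469 and 482 CPM treated, a log2 change of 2.64 ± 0.05. Fgf21 itself, a fasting hormone, went from 2.71, 3.39 and 2.7 CPM to 15.6, 12.5 and 15.6 CPM, a log2 change of 2.31 ± 0.11.

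Of the 10 hepatocyte markers 6 fell and 1 rose under CP775146, where 19.1% of all tested genes fell and 18.1% rose. Of 35 differentiated hepatocyte genes 21 fell and 6 rose. Markers of other liver cells are given here beside the falling groups that follow. Summed macrophage markers were at 161, 164 and 170.4 CPM untreated and 119.9, 128 and 113 CPM treated, with 5 of 12 tested members falling and none rising. Endothelial markers were at 90.5, 84.1 and 82.6 CPM untreated and 62.9, 68.4 and 63.8 CPM treated (2 of 12 fell), and stellate and fibroblast markers at 126, 111 and 117 CPM untreated and 70.7, 81.1 and 74.9 CPM treated (2 of 10 fell), shares near the 19.1% of all genes that fell. No treated library reached the lowest untreated one in any of the 3 sums. Over tested members the median log2 change was -0.46 for macrophage, -0.19 for endothelial and -0.22 for stellate and fibroblast markers. Of these members, 10 of 12 endothelial and 8 of 10 stellate and fibroblast ones were not called, so the sums do not show a fall across each list. Neutrophil and lymphocyte markers summed to at most 0.127 CPM in any of the 6 libraries, and 9 of these 15 genes had no count in any of them. In such bulk samples, fewer cells of a type and less RNA per cell cannot be told apart, and the part of these cells in the falls described next was not tested.

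**Figure D3:**
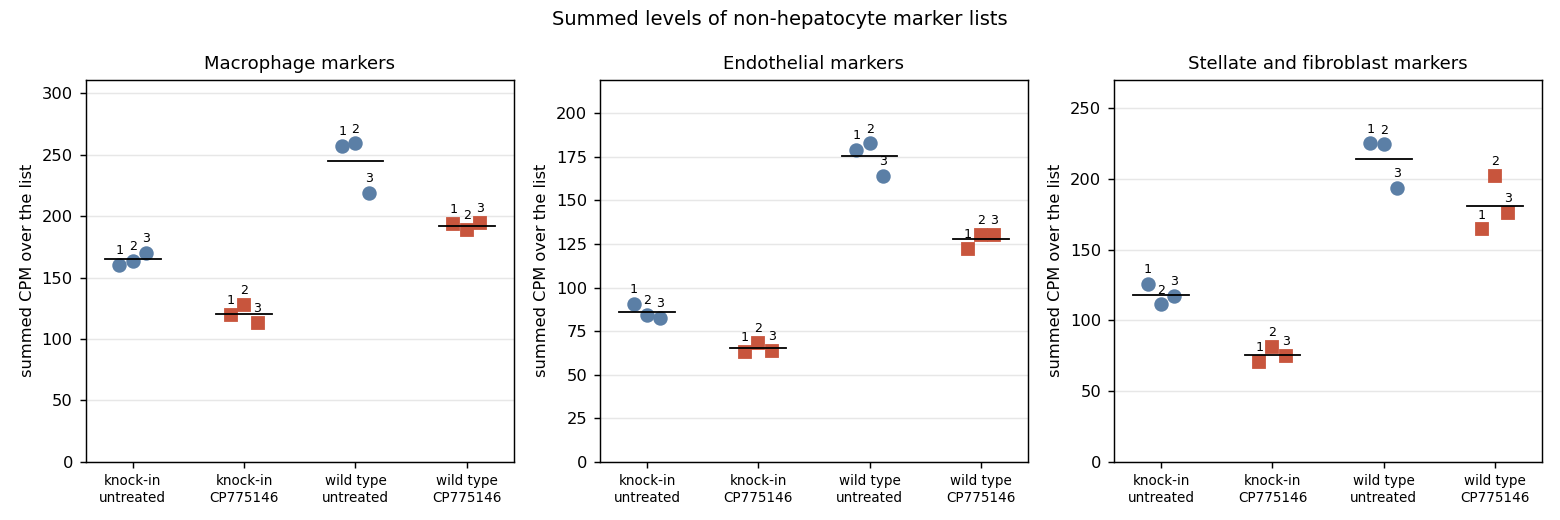
Summed CPM of macrophage, endothelial and stellate or fibroblast marker lists in each library (points, numbered by replicate) with group means (lines), in the knock-in and wild-type groups. In all 3 lists the 3 treated knock-in libraries lie under the 3 untreated ones, for example 113 to 128 against 161 to 170.4 CPM for macrophage markers.

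Tat, the tyrosine aminotransferase, was among the large falls, at 106, 109 and 108 CPM untreated and 24.3, 22 and 23.4 CPM treated, a log2 change of -2.22 ± 0.09. The other large falls named here were in genes of low level. Plcl1, a phospholipase C-like protein, changed by -2.73 ± 0.13 from a mean of 7.14 CPM, Rasl10b, a Ras-like GTPase, by -2.74 ± 0.20 from 3.58 CPM and Mep1a, a meprin metalloprotease subunit, by -2.51 ± 0.24 from 1.74 CPM. Marcksl1, an actin regulator, changed by -2.13 ± 0.13, Dsg1c, a desmosomal cadherin, by -2.35 ± 0.21, and Srd5a2, a steroid reductase, by -1.91 ± 0.20. Krt7, a bile duct keratin, went from 5.96, 6.38 and 6.25 CPM to 1.46, 1.9 and 1.6 CPM, although summed cholangiocyte markers were at 92.7 to 95.3 CPM untreated and 105.7 to 115 CPM treated.

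Bile acid genes went in both directions, with 7 of 22 rising and 8 falling, where 18.1% of all tested genes rose and 19.1% fell. Cyp7a1, the rate-limiting enzyme of bile acid synthesis, had 45, 41 and 49 counts untreated and 8, 3 and 2 counts treated, so its fall (log2 -3.33 ± 0.37) reached the level of 3 counts. Slco1a4, a sinusoidal uptake transporter, was at 82.8, 77.3 and 86.1 CPM untreated and 36.1, 37.6 and 37.8 CPM treated, a change of -1.14 ± 0.05. Abcb4, which flips phosphatidylcholine into bile, rose by 1.18 ± 0.04, and Klb, a coreceptor of endocrine fibroblast growth factors, by 1.002 ± 0.10. Cholesterol synthesis and uptake rose in 22 of 28 genes with 1 falling, at a median of 0.31 and with none reaching 2-fold. Hsd17b7, a late enzyme of the pathway, rose by 0.91 ± 0.04 and Hmgcs1, which opens it, by 0.82 ± 0.04. The members include Insig1 and Insig2, which restrain the pathway, and these rose too, by 0.77 ± 0.04 and 0.65 ± 0.04.

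Glucose genes mixed a strong rise at pyruvate with changes at other steps (28 of 42 rose, 6 fell). Pdk4, which shuts the pyruvate dehydrogenase complex, was at 20.3, 22.5 and 22 CPM untreated and 471, 475 and 483 CPM treated, a log2 change of 4.46 ± 0.05. G6pc, the glucose-6-phosphatase, went from 3.28, 3.48 and 3.44 CPM to 17.9, 18.2 and 20.0 CPM, a log2 change of 2.46 ± 0.09. Slc2a2, the hepatocyte glucose transporter, fell to 174, 190.2 and 179 CPM from 389.7, 384 and 391 CPM, a change of -1.10 ± 0.04, and Ppp1r3c, a glycogen-targeting subunit, changed by -1.78 ± 0.09.

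Amino acid catabolism and the urea cycle fell in 22 of 52 genes and rose in 16. Cps1, the entry enzyme of the urea cycle, was at 1864, 1859 and 1888 CPM untreated and 801, 759 and 809 CPM treated, a change of -1.24 ± 0.04. Hpd, an enzyme of tyrosine breakdown, changed by -1.18 ± 0.06. Against these, Tdo2, the tryptophan dioxygenase, rose from 80.5, 85.1 and 89.4 CPM to 341, 309 and 360.2 CPM, a log2 change of 1.99 ± 0.14, and Glul, glutamine synthetase, rose by 1.07 ± 0.05. Vnn1, a pantetheinase that is a classical PPAR-alpha target, rose by 2.11 ± 0.05, whereas Acmsd, which diverts tryptophan carbon from NAD, fell, at -0.97 ± 0.05.

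Xenobiotic cytochromes of the CYP1, CYP2 and CYP3 families included 18 that fell and 11 that rose of 44. The count of rises was 6 with total-count scaling, where 2066 of all 15664 tested genes rose. Without untreated knock-in replicate 3 it was also 6, where 2426 of all 15916 tested genes rose. Cyp2b10, a target of the receptor CAR, was at 1176, 1180.0 and 1185 CPM untreated and 607, 598 and 608 CPM treated, a change of -0.97 ± 0.04. Cyp1a1, a target of the aryl hydrocarbon receptor, changed by -1.45 ± 0.07 and Cyp3a11, a target of PXR, by -0.42 ± 0.05; both were chosen after their values were seen. Cyp2j5, an epoxygenase of fatty acids, went the other way, from 56.6, 52.6 and 52.8 CPM to 201, 201 and 219 CPM, a log2 change of 1.94 ± 0.05. NRF2 targets rose in 18 of 24 cases at a median of 0.27, led by Cbr3, a carbonyl reductase, at 2.21 ± 0.06, while Gclc, which makes the glutathione precursor, fell at -0.34 ± 0.04.

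Plasma protein genes fell as a group, by small amounts. Of 46 complement and coagulation genes 29 fell and 1 rose (median -0.15), and of 42 acute-phase reactants 26 fell and 3 rose (median -0.27). Fgb, the fibrinogen beta chain, was at 1231, 1336 and 1192 CPM untreated and 697, 698 and 673 CPM treated, a change of -0.86 ± 0.04, and the other fibrinogen chains Fga and Fgg changed by -0.51 ± 0.04 and -0.52 ± 0.04. F11, coagulation factor XI, changed by -1.11 ± 0.06. Il6ra, the receptor subunit for the acute-phase cytokine IL-6, was at 64.2, 59.5 and 59.6 CPM untreated and 37.5, 37.7 and 36 CPM treated, a change of -0.72 ± 0.05. Cpb2, a fibrinolysis inhibitor, was the 1 riser of the coagulation list, at 0.34 ± 0.04, and Hp, encoding haptoglobin, and Apcs, encoding serum amyloid P, rose by 0.18 ± 0.04 and 0.29 ± 0.04.

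Of 50 tested interferon-stimulated genes 41 rose and 2 fell, with a median log2 change of 0.77. Their summed level was 2178, 2271 and 2021 CPM in the untreated and 3383, 3290 and 3407 CPM in the treated knock-in libraries, so the groups do not overlap. Without untreated knock-in replicate 3, the library with the lowest sum, 25 rose, where 2426 of all 15916 tested genes rose. Ifit1, which binds foreign RNA caps, was at 10.7, 15.1 and 8.75 CPM untreated and 34.1, 34.4 and 38.2 CPM treated, a log2 change of 1.63 ± 0.33, and Isg15, a ubiquitin-like modifier, rose by 1.499 ± 0.36. Irf7, the transcription factor that amplifies the interferon response, rose from 39.3, 38.7 and 31.9 CPM to 83.6, 79.1 and 85.3 CPM; these 3 genes were chosen after their values were seen. Iigp1, an interferon-induced GTPase, rose by 1.04 ± 0.07 and Oas3, a sensor of double-stranded RNA, by 1.35 ± 0.15. The 2 falls were Ifit2, at -0.65 ± 0.07, and Irf1, at -0.19 ± 0.06, the latter not past the test without treated or without untreated knock-in replicate 2.

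With all 3 treated wild-type libraries, the interferon-stimulated genes had a median log2 change of 0.08 in wild type. The difference between the genotypes passed the test for 4 of the 50 genes (edgeR, adjusted p below 0.05; background over all genes 2.78%), with a median difference of 0.55. Without wild-type CP775146 replicate 1 it passed for 40 of 50, with a median difference of 0.82, while the other alternatives gave 0 to 11. Summed over the list, the wild-type libraries were at 2063, 1894 and 1994 CPM untreated and 2933, 2101 and 2085 CPM treated, so all 3 treated wild-type libraries lay under the lowest treated knock-in one.

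**Figure D4:**
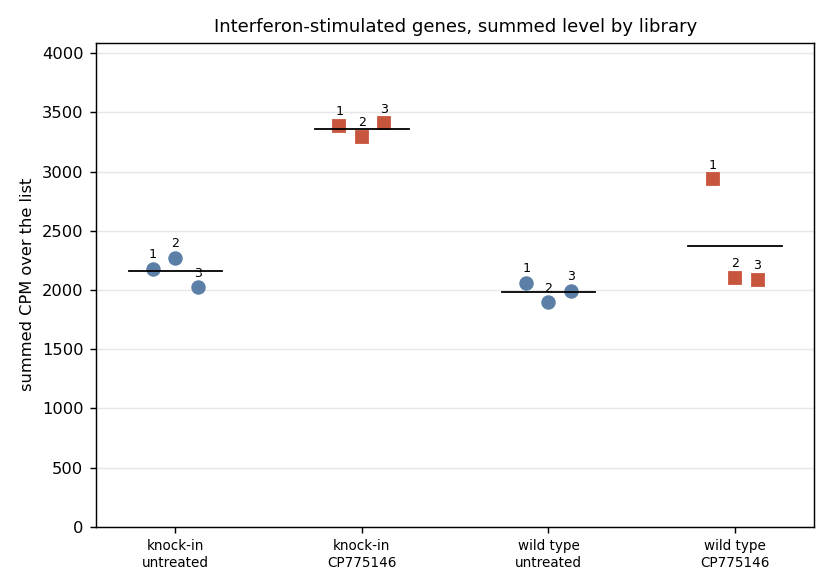
Summed CPM of interferon-stimulated genes in each of the 12 libraries (points, numbered by replicate), with group means as lines and the axis starting at 0. The treated knock-in libraries lie at 3290 to 3407 CPM, and treated wild-type replicate 1, at 2933 CPM, lies apart from replicates 2 and 3 at about 2100 CPM.

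Genes of DNA replication fell in 26 of 46 cases with 1 rising, at a median of -0.33. Mcm2, a subunit of the replicative helicase, was at 32.6, 30.2 and 31.8 CPM untreated and 22, 24.1 and 21.9 CPM treated, a change of -0.48 ± 0.06, and Uhrf1, which maintains DNA methylation, changed by -0.84 ± 0.11. Of 47 mitosis genes 13 fell and 2 rose, where 19.1% of all tested genes fell and 18.1% rose. The count of falls was 6 when only genes of at least 5 CPM were tested, where 2648 of all 10410 genes fell. It was 20 with limma voom and 21 with total-count scaling, where 3631 and 4352 of all 15664 genes fell. Cdk1, the mitotic kinase, went from 5.71, 5.53 and 6.08 CPM to 3.62, 3.53 and 3.77 CPM, a change of -0.67 ± 0.11. Spc25, a kinetochore protein, rose by 1.22 ± 0.08. The macrophage, endothelial and stellate marker sums given above were lower in the same libraries, and their part in these falls was not tested.

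Glucocorticoid targets fell in 15 of 21 cases and rose in 2 (median -0.30). Sgk1, a kinase gene that glucocorticoids raise, was at 239.6, 216 and 213 CPM untreated and 70.7, 75.5 and 76.2 CPM treated, a change of -1.59 ± 0.05, and Igfbp1, the insulin-like growth factor-binding protein, changed by -1.19 ± 0.05. The risers were Tdo2 and Angptl4, an inhibitor of lipoprotein lipase that is also a classical PPAR-alpha target and rose by 1.28 ± 0.05. Hippo and YAP-TEAD genes fell in 14 of 26 cases, among them Tead2, a TEAD factor, at -1.32 ± 0.17, while Ccn1, a much-used YAP readout, rose by 0.24 ± 0.04. Autophagy and lysosome genes fell in 19 of 36 cases by small amounts, with Map1lc3b, the autophagosome protein LC3B, at -0.36 ± 0.04. Among cytoskeletal genes Tuba1a, an alpha-tubulin, went from 36.2, 33 and 35.3 CPM to 10.3, 9.05 and 9.23 CPM, a change of -1.87 ± 0.07, while Tubb2b, a beta-tubulin, rose by 1.76 ± 0.06.

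Most of the response was called in wild type as well, where 3553 genes rose (22.7%) and 3496 fell (22.3%). The 2218 genes that rose in both genotypes are 78.3% of the knock-in rises and 62.4% of the wild-type ones, and the 2194 that fell in both are 73.4% and 62.8%. The difference between the 2 responses was tested for each gene and passed for 1113 (7.11%), with the knock-in value higher for 435 (2.78%) and lower for 678 (4.33%). With total-count scaling this split turned to 663 higher and 519 lower. The higher count fell to 251 without treated knock-in replicate 1, 270 without untreated knock-in replicate 1 and 271 without untreated knock-in replicate 2. Without wild-type CP775146 replicate 1 it was 638, with 662 lower.

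Classical PPAR-alpha targets had a median log2 change of 2.09 in the knock-in and 2.52 in wild type. The knock-in change was called smaller for 31 of the 49 and larger for 6, and the median difference was -0.37 against -0.01 over all genes. The untreated mean was higher in the knock-in for 34 of the 49, and the treated mean was lower in it for 25. These 2 counts compare means without a test. The same counts over all tested genes were not made, so they do not show a trait of the targets. Summed over the list, untreated libraries were at 5802 to 5862 CPM in the knock-in and 4546 to 4755 CPM in wild type, without overlap, and treated libraries at 30613 to 32186 and 28870 to 30674 CPM, which overlap.

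Acot1 had the most negative difference of the 49 targets. In wild type it was at 4.07, 3.04 and 4.26 CPM untreated and 425, 452 and 475 CPM treated, so the treated levels overlapped those of the knock-in while the untreated levels lay far under them, and the difference in log2 response was -1.82 ± 0.10. Cd36 differed by -1.52 ± 0.10, from 70.7, 64.2 and 84.8 CPM untreated in wild type to 680.4, 728 and 692 CPM treated, both under the knock-in levels. The rises of Fbp2 and Lamb3, a laminin chain, were also smaller in the knock-in, by -1.39 ± 0.14 and -1.37 ± 0.13. Fabp1, Cyp4a10, Cyp4a14, Cidec and Acaa1b were among the 6 with a larger change in the knock-in; without untreated knock-in replicate 1 the difference of Fabp1 did not pass the test. Cyp4a10 differed by 0.82 ± 0.08, with wild-type levels of 62.8, 70.5 and 55.9 CPM untreated and 769.5, 758 and 798 CPM treated, both above those of the knock-in. Ehhadh did not differ past the test, at 0.02 ± 0.06 (edgeR adjusted p = 0.918).

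**Figure D5:**
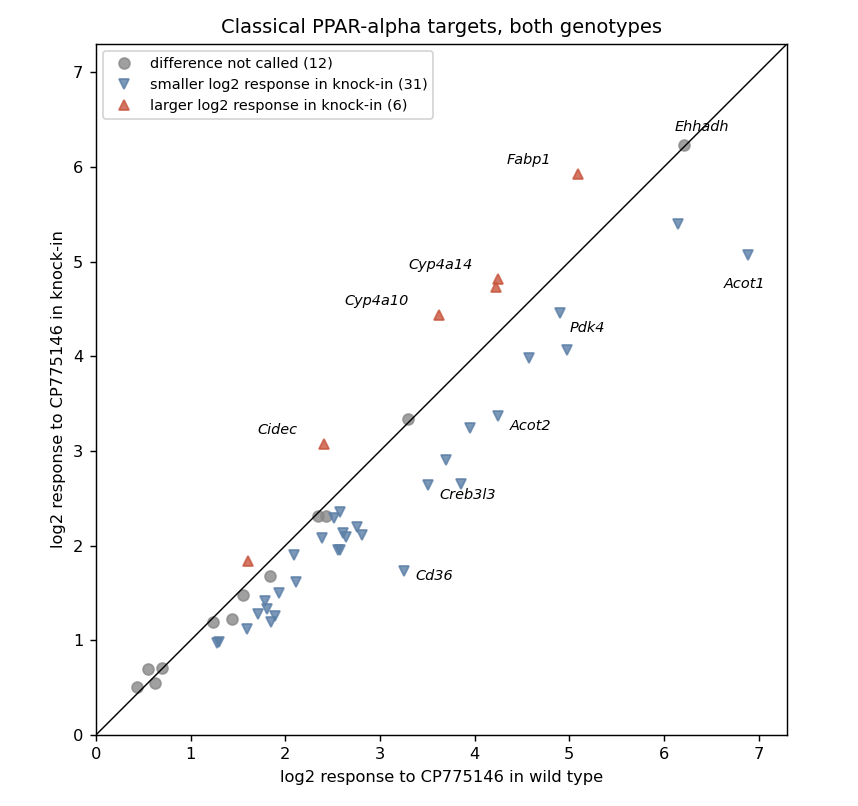
Log2 response to CP775146 of the 49 tested classical PPAR-alpha targets in wild type (x axis) and knock-in (y axis), with the line of equal response. Triangles pointing down (31) and up (6) mark targets whose response was called smaller or larger in the knock-in, and grey circles the 12 whose difference did not pass the test.

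Outside the targets, the largest differences in favor of the knock-in were in genes of low level. Slfn2, a Schlafen protein of immune cells, rose in the knock-in from 13, 11 and 4 counts to 68, 57 and 81 counts, and differed from wild type by 2.78 ± 0.54; DESeq2 gave no adjusted p for it. Pde1b, a cyclic nucleotide phosphodiesterase, differed by 2.25 ± 0.41 and Serpina5, the protein C inhibitor, by 1.29 ± 0.23. Mki67, a marker of cycling cells, fell in both genotypes, from 11.6, 11 and 11.7 CPM to 7.97, 8.49 and 9.12 CPM in the knock-in and from 2.45, 2.56 and 2.58 CPM to 0.854, 0.715 and 0.409 CPM in wild type, a difference of 1.49 ± 0.22. Glul rose more in the knock-in, by 0.85 ± 0.08. On the lower side, Gsn, the actin-severing protein gelsolin, fell in the knock-in (-1.22 ± 0.13) and did not pass the test in wild type (0.19 ± 0.17), a difference of -1.42 ± 0.21. Tagln, an actin-binding protein, was at 26.6, 26.2 and 25.4 CPM untreated and 12.8, 14.1 and 13.4 CPM treated in the knock-in, against 25.5, 25.4 and 26 CPM untreated and 25.2, 28 and 26.1 CPM treated in wild type, a difference of -0.996 ± 0.08.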

How the data were processed

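The deposited values are counts per gene in 1 table for each library, made by the authors with featureCounts 1.6.2 against Ensembl release 83 gene models, per the file headers; the submitters' processing notes give featureCounts 1.4.6-p4, cutadapt 1.9 and edgeR 3.18.1. The headers set no strand option, so reads were counted without regard to strand, and counts in overlapping or antisense genes are uncertain. The 37 mitochondrial genes were listed at 0 in all libraries. Here genes were kept with filterByExpr (minimum count 10, minimum total 15), scaled by TMM and fitted over all 12 libraries with 1 term for each group by edgeR 4.0.16 (quasi-likelihood, robust) in R 4.3.3; p-values were Benjamini-Hochberg adjusted over 15664 genes with a threshold of 0.05. CPM values use TMM-scaled library sizes. Standard errors (SE) are approximate: each is the size of the log2 change divided by the square root of edgeR's F statistic. Alternatives used DESeq2 1.42.0, limma 3.58.1 voom, other scalings and filters, a replicate block and each library left out. On simulated counts the fit recovered 61.7% of 1.25-fold and 86% of 2-fold changes, and called 9 of 15099 unchanged genes. Those counts followed the model that the fit assumes, and few genes were changed, where 37.2% were called in the data. The figures therefore do not give the rates of missed or false calls in the data. The members and gene lists were chosen with earlier results of these data known. Genes were named by rule: the 12 largest rises and falls of at least 1 CPM without overlap, up to 4 leading and 2 opposite members of a list, the 8 largest genotype differences in each direction, receptors with Mtdh, and the 8 largest gains and losses of counts; some genes that the rule names are not reported here.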

Additional observations from a re-analysis of the deposited data

Results flagged for a closer look

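The response to CP775146 differed between knock-in and wild type, by edgeR's test of the difference itself, for 65 of the genes named here; values are the knock-in log2 change minus the wild-type one.

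For genes that rose in both genotypes, a smaller rise in the knock-in gave -1.82 for Acot1, -1.52 for Cd36, -1.39 for Fbp2, -1.37 for Lamb3, -1.34 for Serpinb9e, -0.92 for G0s2, -0.88 for Acot2, -0.86 for Creb3l3 and -0.75 for Acot3. Smaller differences of this kind were -0.71 for Ucp2, -0.70 for Vnn1, -0.63 for Plin2, -0.59 for Cyp4a31, -0.48 for Hadha, -0.63 for Lgals3, -0.54 for Igf2bp2, -0.45 for Pdk4, -0.44 for Angptl4, -0.43 for Sox9, -0.40 for Tubb2b, -0.31 for Cpt1a, -0.27 for Insig2, -0.27 for Hsd17b7, -0.23 for Slc16a1, -0.22 for Acsl1, -0.22 for Slc27a2, -0.22 for Acacb, -0.21 for Mttp, -0.20 for Idh1 and -0.19 for Pex11a. A larger rise in the knock-in gave 0.50 for Acaa1b, 0.57 for Cyp4a14, 0.67 for Cidec, 0.82 for Cyp4a10, 0.84 for Fabp1, 0.85 for Glul, 1.29 for Serpina5 and 2.25 for Pde1b. Slfn2 (2.78) and Oas3 (1.33) rose in the knock-in and did not pass the test in wild type.

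For genes that fell in the knock-in, the value was more negative than in wild type by -1.42 for Gsn, -1.27 for Krt7, -0.996 for Tagln, -0.41 for Tff3, -0.39 for F11, -0.37 for Gpnmb, -0.35 for Fgg, -0.32 for Acmsd, -0.27 for Ahsg, -0.23 for Fgb, -0.21 for Gclc, -0.20 for Slc2a2, -0.19 for Apoa1, -0.18 for Alb and -0.17 for Selenop. A smaller fall in the knock-in gave 0.36 for Per2, 0.40 for Slco1a4, 0.56 for Cyp1a1, 0.58 for Hpd, 0.62 for Cps1, 1.05 for Tead2, 1.152 for Marcksl1, 1.21 for Tuba1a and 1.49 for Mki67. Rxra differed by 0.24, with a fall in wild type and no called change in the knock-in. Of the genes that fell in the knock-in, Gsn, Tagln, Alb and Apoa1 did not pass the test in wild type, and the fall of Alb in the knock-in itself was lost without treated replicate 1 or 3 or untreated replicate 1 or 2. Without wild-type CP775146 replicate 1 the difference of Oas3 was 1.71.

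Several of these differences did not pass the test in some of the 19 alternative settings (other than the 2-fold test). Acacb missed it in 13 settings, Apoa1 in 9, Selenop in 8, Alb, Per2 and Pex11a in 7 each, G0s2 and Slc2a2 in 6 each, Gclc in 5, Acot3 in 4 and Serpinb9e in 3. Fgb and Idh1 missed it in 2 settings each, and Cyp1a1, Fabp1, Krt7, Slc27a2 and Sox9 in 1 each.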

How the results depend on the processing

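The counts of genes that rose (2832) and fell (2989) in the knock-in stayed within 1.5 times under DESeq2 (2561 and 2569), RLE scaling (2825 and 2986), a 5 CPM filter (2426 and 2648), no filter (2718 and 3014), limma voom (3389 and 3631), knock-in libraries fitted alone (3459 and 3474) and total-count scaling (2066 and 4352). Requiring a change beyond 2-fold in the test itself (edgeR's glmTreat) left 230 and 49, and 0 higher and 1 lower for the genotype difference, where DESeq2 without that minimum called 424 and 630 and limma voom 513 and 803. Total-count scaling gave 663 higher genotype differences against 435; the cause was not tested. Leaving out each knock-in library gave 2384 to 2527 rises and 2425 to 2637 falls, which were not refitted without a wild-type library. Leaving out each library of either genotype gave 251 to 638 higher and 481 to 882 lower differences. Each of these fits had fewer samples. Replicate numbers are shared by the groups, but same-numbered libraries did not deviate together (r from -0.013 to 0.027 between treated and untreated knock-in libraries), not every library correlated best with its own number, and with the replicate number as a block 2812 genes rose and 2949 fell, with 436 higher and 694 lower differences. Of the 65 named genotype differences, 42 passed the test in all 19 settings other than the 2-fold test, 18 missed it in at least 1, and 0 changed direction where tested. The other 5 (Gsn, Serpina5, Oas3, Pde1b and Slfn2) passed wherever tested but were not tested in every setting, being removed by the 5 CPM filter or, for Slfn2, also left without an adjusted p by DESeq2. In the knock-in libraries 3 counts correspond to 0.086 to 0.101 CPM. Cyp7a1, Mogat1, Slfn2, Cbfa2t3 and Sdcbp2 lie near that level in 1 of the groups, so the sizes of their changes are uncertain.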

Other observations

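Of 52 nuclear genes in a list of respiratory chain subunits, mitochondrial carriers and coactivators, 25 rose and 1 fell in the knock-in. Their median log2 change was 0.12, and over all tested genes 18.1% rose and 19.1% fell. The count of rises was 39 with the knock-in libraries fitted alone, where 3459 of all 15164 tested genes rose. With total-count scaling it was 15, where 2066 of all 15664 tested genes rose. The member that fell was the coactivator gene Ppargc1a, at -1.16 ± 0.09, and the largest rise was in the carrier gene Ucp2, at 3.24 ± 0.07; neither is a respiratory chain subunit. Of 21 tricarboxylic acid cycle genes 16 rose and 1 fell. Idh1, the cytosolic isocitrate dehydrogenase, was at 260.4, 266 and 259 CPM untreated and 451, 459 and 455 CPM treated, a log2 change of 0.80 ± 0.04 (SE). Its mitochondrial counterpart Idh2 was the member that fell, at -0.52 ± 0.04. Of 48 cytosolic ribosomal protein genes 5 rose and 0 fell, with a median of 0.06.

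Of 22 lipoprotein genes 9 rose and 5 fell, where 18.1% of all tested genes rose and 19.1% fell. Mttp, which loads triglyceride onto apolipoprotein B, was at 286, 291 and 293 CPM untreated and 657, 650.4 and 668 CPM treated, a log2 change of 1.18 ± 0.04. Apoa1, the main protein of high-density lipoprotein, was at 5406, 5430.2 and 5375 CPM untreated and 4748, 4712 and 4931 CPM treated, a change of -0.17 ± 0.04. In both cases the groups did not overlap.

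Of 22 p53 targets 10 fell and 5 rose, where 19.1% of all tested genes fell and 18.1% rose. Trp53inp1, a stress-induced p53 cofactor, changed by -0.52 ± 0.04 and Gdf15, a stress-induced hormone, by 0.63 ± 0.05. Of 20 circadian clock genes 9 fell, among them Per2 at -0.57 ± 0.07, and 5 rose, among them Nr1d1, encoding the repressor REV-ERB-alpha, at 0.78 ± 0.09; Nr1d1 shares 8.55% of its exonic length with Thra, and the counts do not use strand. Of the imprinted and oncofetal genes, Igf2bp2, an RNA-binding protein, rose by 0.97 ± 0.07 and Sox9, a transcription factor of bile duct cells, by 0.98 ± 0.07. Tff3, a secreted trefoil peptide, was at 33.3, 31.5 and 32.02 CPM untreated and 9.56, 9.75 and 9.46 CPM treated, a change of -1.75 ± 0.06. Lgals3, encoding galectin-3, rose by 1.37 ± 0.05, and Gpnmb, a lysosomal glycoprotein, changed by -1.16 ± 0.06. The summed macrophage markers were at 161 to 170.4 CPM untreated and 113 to 128 CPM treated, and their part in these changes was not tested.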
